A study of Caenorhabditis elegans with 4 samples.

Results

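Chromosome V of Caenorhabditis elegans carried 369 of the 2332 binding sites of EFL-1::GFP in the combined peak list, taken as every row of that list whose chromosome is V. The other autosomes, I to IV, carried 1820. The sites come from ChIP-seq on hermaphrodites of strain YL418 harvested as fed L1 larvae after growth at 20 °C, with 2% formaldehyde as the crosslinker. The strain is unc-119(ed3) III and holds the transgene vrIs65, in which the ges-1 promoter drives EFL-1 fused to GFP and FLAG in the intestine, together with unc-119(+). It was not outcrossed, the labels name no mutation of the worm's own efl-1, and they do not give where vrIs65 is inserted. All 4 samples share this genotype, stage and treatment: 2 ChIP libraries precipitated with goat antibodies against GFP and 2 Input libraries, numbered replicates 2 and 3 in both groups. Whole larvae were lysed while the fusion is made in the intestine. The labels do not say that the replicates are separate cultures, so agreement between them may be technical.

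EFL-1 is an E2F-family transcription factor. E2F proteins bind DNA with a DP partner, which is DPL-1 in the worm, and with Rb-family proteins (worm LIN-35) they turn cell cycle genes down, or without them turn such genes up as cells enter S phase. The larval intestine is a tissue where nuclei go on replicating DNA without cell division. On worm autosomes, conserved and widely expressed genes are known to be concentrated in the centre, while the arms recombine more and hold more repeats. The arms of chromosome V are known for large families of chemoreceptor genes. In the RefSeq gene table of assembly WBcel235, efl-1 and ges-1 both lie on chromosome V. Their positions were not set against the peaks, whose coordinates are on another build, WormBase WS220. Sites below are therefore given by position, with no gene, and no sequence was read.

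The deposited peaks carry a score whose meaning the file headers do not give. Ranks run from 1, the best, and order peaks by that score, with tied peaks in the order of their name numbers. The combined list has 2058 sites tied at the highest score, replicate 2 has 1390 and replicate 3 has 2299, so most ranks below rest on those numbers. Each replicate list stops at 30000 peaks. No control precipitation without the tagged protein was analysed here, and binding of EFL-1::GFP cannot be told apart from other precipitated chromatin. Sequencing depth is unknown.

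The best-ranked sites of chromosome V were found in both replicates at nearly the same place. The first was in the central part of the chromosome at 10897219 to 10897527, with rank 6 in the combined list, 6 in replicate 2 and 5 in replicate 3. The second, at 5939528 to 5939849 on the left, had combined rank 7 and replicate ranks 9 and 6. The third, at 16965676 to 16965964 on the right, had combined rank 10, rank 7 in replicate 2 and rank 26 in replicate 3. At these 3 sites the midpoints of the replicate peaks lay within 10 bp of the combined midpoint, so both libraries placed them alike.

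The next 7 sites were spread over all parts of the chromosome. The site at 11521450 to 11521732 had combined rank 29, with replicate ranks 33 and 27. The site at 5204186 to 5204486 had rank 32, with ranks 19 and 52, and the site at 15189574 to 15189859 had rank 33, with ranks 16 and 58. The site at 5917765 to 5918047 (rank 39) had ranks 54 and 29, and lay 21782.5 bp before the second-best site. The peaks of these 4 were among the best 60 of both replicates. The site at 15766237 to 15766510 (rank 42) had replicate ranks 49 and 37, the site at 12291661 to 12291928 (rank 46) had 62 and 35, and the site at 8031190 to 8031459 (rank 54) had 47 and 68. Chromosome V held 19 of the best 100 combined sites.

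Support in the replicates was asked next, since a site with a peak in both libraries rests on more than 1 of them. A peak of replicate 2 overlapped 352 of the 369 sites by at least 1 bp, 95.4% (95% exact interval 92.7 to 97.3%), beside 95.1% of all 2332 sites. A peak of replicate 3 overlapped all 369 (99.0 to 100%), beside 99.9% of all sites. Part of this is built in, because the combined list comes from these libraries. Within the best 2332 peaks of a replicate, a number equal to the combined total, 275 sites had a partner in replicate 2 (74.5%, beside 73.8% of all sites) and 337 in replicate 3 (91.3%, beside 90.1%). Both sets held 251 sites, 68.0% (63.0 to 72.7%), beside 66.7% of all sites. For a further 86 the best peaks of replicate 3 alone gave a partner (23.3%, beside 23.4% of all sites). For 24 those of replicate 2 alone did (6.50%, beside 7.08%), and for 8 neither did (2.17%, beside 2.79%).

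No difference in this support between chromosome V and chromosomes I to IV was detected. The share in the best peaks of both replicates was 68.2% on I to IV, and the test did not pass (Fisher's exact test, two-sided, p = 0.95; 95% interval of the odds ratio 0.77 to 1.27). The share with any peak of replicate 2 was 95.5% on I to IV (two-sided Fisher's exact test, p = 0.89), and that with any peak of replicate 3 was 99.8% (p = 1 by the same test). These tests treat sites as independent, as do all tests below, although neighbouring sites may not be. Across the 352 sites with a peak in both replicates the ranks had a Spearman coefficient of 0.80, and it was 0.81 over 1735 such sites of I to IV. As most scores are tied, this coefficient largely compares name numbers. The replicate midpoints differed by a median of 20.8 bp on chromosome V, and 90.1% of pairs lay within 100 bp.

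Along the chromosome the shares lay within one another's intervals. The best peaks of both replicates held 67.6% of the left sites (75 of 111), 68.3% of the central sites (114 of 167) and 68.1% of the right sites (62 of 91). The 17 sites with no peak in replicate 2 comprised 5 on the left, 7 in the centre and 5 on the right. The best-ranked of them was at 12001965 to 12002254, with combined rank 1463 and rank 992 in replicate 3. The others named are at 9970206 to 9970495 (rank 1553, 1154 in replicate 3), 4731430 to 4731719 (rank 1560, 1341 in replicate 3), 20778299 to 20778588 (rank 1571, 1395 in replicate 3) and 13907522 to 13907811 (rank 1604, 1434 in replicate 3). At all 5 the combined and the replicate 3 score are the highest of their lists, while replicate 2 lists no peak there.

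**Figure D1:**
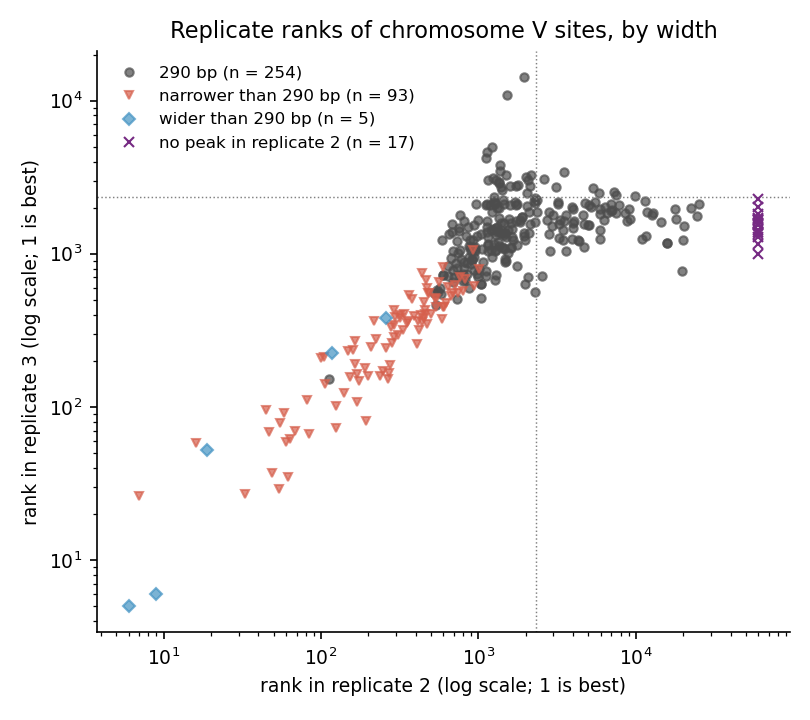
Rank of each chromosome V site in replicate 2 (x axis) and replicate 3 (y axis), both on log scales with 1 as the best; symbols give the width class in the combined list, crosses at the right edge the 17 sites with no peak in replicate 2, and dotted lines mark rank 2332. The 93 narrower and 5 wider sites all lie in the lower left, while sites of 290 bp spread out towards high ranks of replicate 2.

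At the weak end the replicates parted. The lowest-ranked site of chromosome V, at 4029604 to 4029893, was also the last of the whole combined list (rank 2332), and it had rank 2276 in replicate 3 and no peak in replicate 2. The site at 12100816 to 12101105 (rank 2322) had rank 1949 in replicate 2 and 14231 in replicate 3, the poorest replicate 3 rank on the chromosome. The site at 8936171 to 8936460 (rank 2314) showed the opposite, with rank 12929 in replicate 2 and 1835 in replicate 3. The sites at 6433569 to 6433858 (rank 2330) and 5846032 to 5846321 (rank 2318) had ranks of 2021 and 3165, and of 4731 and 2129. Of the 8 sites outside the best 2332 of both replicates, the best ranked was at 12111513 to 12111802, with combined rank 1918 and replicate ranks 7264 and 2536. The next were at 7854473 to 7854762 (combined rank 2025), 1871818 to 1872107 (2032), 15590282 to 15590571 (2073) and 13081337 to 13081626 (2220).

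Most scores on chromosome V were at the ceiling. The highest score of the combined list was held by 332 of the 369 sites, 90.0% (86.4 to 92.8%), beside 88.3% of all sites and 88.4% on I to IV (Fisher's exact test, two-sided, p = 0.42). The other 37 had scores from 2.34 to 3.14, against 3.61 at the ceiling. In the replicates, 202 of the 369 sites (54.7%) overlapped a peak with the highest score in both libraries, beside 55.2% of all sites. The chromosome's share of autosomal sites was 15.7% (12.6 to 19.2%) for combined ranks 1 to 500, 16.7% for 501 to 1000, 17.3% for 1001 to 1500, 18.4% for 1501 to 2000 and 16.0% (12.04 to 20.6%) for 2001 to 2332. The intervals of these 5 rank classes overlap. All lie below the 25.4% that chromosome V has of the autosomal length, but V was chosen as the sparsest autosome, so this is no test.

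Peak width went with rank, though mostly among sites tied at the highest score, and the ranks of the width classes overlapped. The commonest width, 290 bp, was held by 271 of the 369 sites, 73.4% (68.6 to 77.9%), beside 72.2% of all sites. It was 69.9% on I to IV (Fisher's exact test, two-sided, p = 0.19). The other 98 sites, 93 narrower and 5 wider, all had best peaks in both replicates, beside 99.7% of such sites in the whole list, against 153 of the 271 sites of 290 bp (56.5%, beside 54.0% in the whole list). All 98 had a combined rank of 975 or better, among the 2058 sites tied at the highest score, where rank follows name numbers. The median combined rank was 324 for the narrower sites and 1479 for those of 290 bp, of which the best had rank 141, at 3743216 to 3743505. Width and rank come from the same peak calling, so this describes how the list was built, and it was much the same on the other autosomes, where the medians were 341 and 1483.

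The widest site, at 2600581 to 2600925, was 345 bp and had combined rank 177, with replicate ranks 118 and 226. It was followed by the second-best site with 322 bp, the best with 309 bp, the site at 5049444 to 5049751 with 308 bp (rank 338) and the fifth-best with 301 bp. Of the 5, 4 were on the left, 1 in the centre and 0 on the right. The narrowest was 72 bp, at 13437604 to 13437675 (rank 615), then 73 bp at 1197612 to 1197684 (rank 975) and 78 bp at 10579060 to 10579137 (rank 726). A narrow call recurred in the replicates: of the 93 narrower sites, 89 overlapped a replicate 3 peak below that list's commonest width of 280 bp, and 58 a replicate 2 peak below its commonest width of 304 bp. The 5 wider sites were wider than common in replicate 3 and narrower than common in replicate 2.

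The density of sites on chromosome V was 17.6 per Mb over 20.9 Mb, the largest peak end in the 3 lists being taken as the length. This was 0.60 times the density on I to IV (95% interval 0.53 to 0.67), and no test is given because the chromosome was chosen as the sparsest autosome. When sites within 20 kb of each other were merged, the ratio was 0.75. The question here is how the sites were divided between the centre and the arms, taken as 3 equal parts of 6.97 Mb. The left part held 111 sites, or 15.9 per Mb (13.1 to 19.2), the central part 167, or 23.9 per Mb (20.5 to 27.9), and the right part 91, or 13.05 per Mb (10.5 to 16.02). Each density was below that of the same part on I to IV, with ratios of 0.61 (0.49 to 0.75) on the left, 0.67 (0.56 to 0.79) in the centre and 0.49 (0.38 to 0.61) on the right.

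Single autosomes varied as widely. In the left part chromosome II, with 15.3 per Mb, was sparser than V, and chromosome I reached 33.1 per Mb. In the right part chromosome IV had 14.1 per Mb, within the interval of V, and chromosome III reached 37.2. In the central part the other autosomes ran from 26.8 per Mb on IV to 47.5 on III, all above the 23.9 of V, although the lowest of them lies within its interval. Sparse arms were therefore seen on other autosomes, 1 arm each on II and IV, whereas on V both were sparse.

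**Figure D2:**
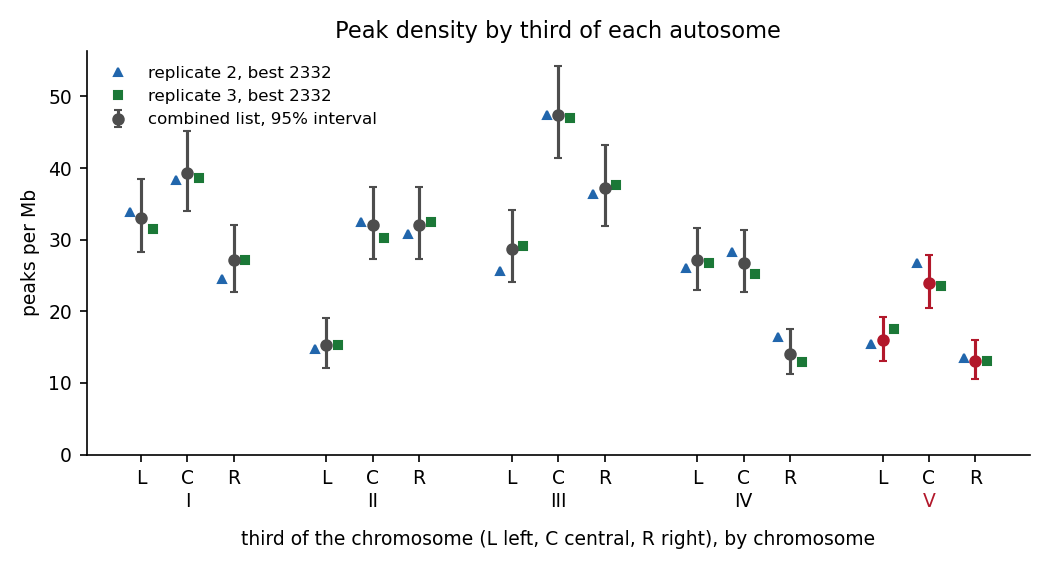
Peaks per Mb in the left (L), central (C) and right (R) part of each autosome, for the combined list (circles, 95% exact Poisson intervals, chromosome V in red) and the best 2332 peaks of replicate 2 (triangles) and replicate 3 (squares). On chromosome V both replicates show the order of the combined list, centre above left above right, and the left part of II and the right part of IV are about as sparse as the arms of V.

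As shares of a chromosome's own sites, which leave its lower total out, the central part of V held 45.3% (40.1 to 50.5%). The shares on the other autosomes were 39.4% on IV, 39.5% on I, 40.3% on II and 41.8% on III, the first pair just below that interval and the other pair within it. Against I to IV together, with 40.3%, the odds ratio was 1.22 (0.97 to 1.54) and did not pass (Fisher's exact test, two-sided, p = 0.082, adjusted over the 3 parts p = 0.12). The left part held 30.1% of the sites on V and 29.3% on I to IV (odds ratio 1.04, 0.80 to 1.33; Fisher's exact test, two-sided, adjusted p = 0.80). The right part held 24.7% on V and 30.3% on I to IV, an odds ratio of 0.75 (0.57 to 0.98), which missed the threshold after adjustment (two-sided Fisher's exact test, p = 0.033, adjusted p = 0.099). On chromosome IV the right part held less, 20.7%.

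These calls depended on where the boundary was drawn and on which list was used. With the boundaries moved outward, to leave 25% of the length on either side, the central 50% of V held 246 sites, 66.7% (61.6 to 71.5%), above the 54.0 to 60.8% of the other 4 autosomes. It differed from the 57.9% of I to IV (odds ratio 1.46; Fisher's exact test, two-sided, adjusted p = 0.0025). The right 25% held 49 sites, 13.3% (9.99 to 17.2%), against 21.8% (odds ratio 0.55, Fisher's exact test, two-sided, adjusted p = 0.00049). The left 25% held 20.1% against 20.3%. On single autosomes the right 25% ran from 14.9% on IV, within the interval of V, to 29.0% on II. The left 25% of II held 11.6%, so an outer part this sparse was not particular to V. The test against the pool does not measure the spread between autosomes. In single replicates the odds ratio of the right part was 0.74 in replicate 2 and 0.72 in replicate 3, and both passed (two-sided Fisher's exact test, adjusted p = 0.029 and p = 0.033). For the central part the odds ratio passed in replicate 2 (1.32, Fisher's exact test, two-sided, adjusted p = 0.029) and not in replicate 3 (1.16, adjusted p = 0.27).

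No difference between the arms of V passed the test in the combined list. Of the 202 sites outside the central part, 111 were on the left and 91 on the right, 55.0% on the left (47.8 to 61.9%; exact binomial test, two-sided, p = 0.18). In replicate 3 alone the best peaks numbered 122 on the left and 91 on the right (57.3%; exact binomial test, p = 0.040), in replicate 2 alone 108 and 94 (53.5%; exact binomial test, p = 0.36). With outer parts of 25% the combined counts were 74 and 49 (60.2%; exact binomial test, p = 0.030).

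Low-ranked replicate peaks, the last 15000 of each list, show how peaks of the same libraries were spread where few overlap a combined site. They were spread more evenly over chromosome V. Its central part held 37.0% of the 3147 such peaks of replicate 2 and 35.2% of the 3017 of replicate 3, against 45.3% of the sites. The odds ratios of 1.41 (1.13 to 1.76) and 1.52 (1.22 to 1.90) passed for both replicates (two-sided Fisher's exact test, p = 0.0022 and p = 0.00019, and 0.012 and 0.0021 when adjusted over all 11 tests of this kind). A higher central share of sites was not particular to V. On I to IV the central part held 40.3% of the sites, against 34.7% of the low-ranked peaks of replicate 2 and 34.5% of replicate 3. That difference was not tested, nor was V set against I to IV in this respect. Outside the combined list, 694 of the 3133 low-ranked peaks of V in replicate 2 overlapped some peak of replicate 3. In replicate 3, 674 of 3015 overlapped some peak of replicate 2. Of the low-ranked peaks of V, 14 in replicate 2 and 2 in replicate 3 overlapped a combined site. The chromosome also held nearly its part of them by length: 25.3% of the autosomal low-ranked peaks of replicate 2 (24.6 to 26.1%) and 24.2% of replicate 3 (23.4 to 24.9%), against 17.7% and 17.4% of the best 2332. The ratio of its low-ranked density to that of I to IV had an interval of 0.96 to 1.04 in replicate 2, and was 0.94 in replicate 3 (0.90 to 0.98).

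In windows of 1 Mb the middle of the chromosome was fullest. The window from 11000001 to 12000000 held 30 sites, with 29 best peaks in replicate 2 and 28 in replicate 3. Its neighbours from 10000001, 12000001 and 13000001 held 27 sites each, and in them replicate 2 had 25 to 32 best peaks and replicate 3 had 26 to 29. The emptiest window, from 17000001 to 18000000, held 6 sites, with 9 and 6 best peaks. The window from 3000001 to 4000000 held 8, with 6 and 10 best peaks. The next emptiest, with 10 sites each, were the window from 2000001 and the last 3 windows from 18000001 to the end. The fullest window thus had 5 times the sites of the emptiest. Low-ranked peaks per window ranged from 110 to 183 in replicate 2 and from 110 to 184 in replicate 3. These counts are larger, so the ranges differ in counting error. Low-ranked peaks numbered 119 and 110 in the emptiest window and 110 and 114 in that from 2000001, but 169 and 145 in the last.

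**Figure D3:**
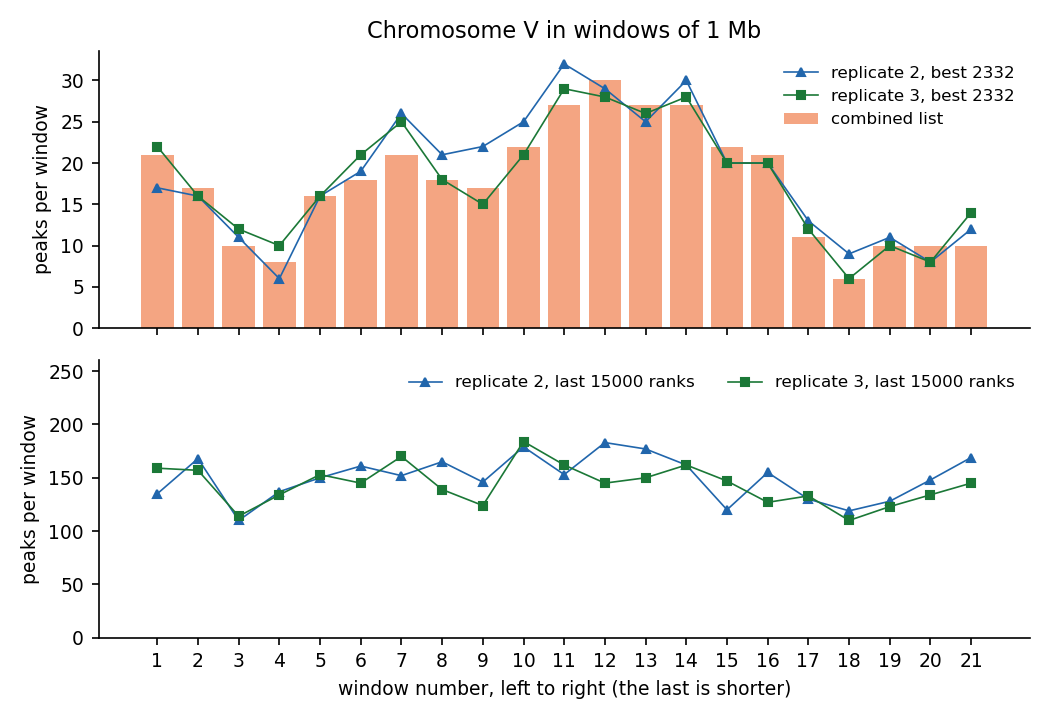
Peaks per 1 Mb window along chromosome V, with the combined list as bars and the best 2332 peaks of each replicate as lines (top), and low-ranked peaks of each replicate on a wider scale (bottom). The combined list is highest in window 12 (30 sites) and lowest in window 18 (6), both replicates are highest in window 11 (32 and 29), and replicate 2 is lowest in window 4 and replicate 3 in window 18 (6 each), while the low-ranked peaks stay between 110 and 184 per window.

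Neighbouring sites lay a median of 32.6 kb apart, with quartiles of 9.82 and 65.7 kb, where the 1816 distances on I to IV had a median of 19.9 kb. The medians of single autosomes ran from 16.3 kb on III to 26.1 kb on IV. Short distances remained common: 59 of the 368 (16.0%) were at most 5 kb, beside 21.1% on I to IV, and 13 (3.53%) were at most 1 kb, beside 4.46%. Linking sites at most 5 kb apart gave 310 groups, of which 263 were single sites, 37 pairs and 10 groups of at least 3. Spacing follows density, so these values are a description.

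The closest pair, at 11979893 to 11980182 and 11980093 to 11980382, overlapped by 90 bp and had midpoints 200 bp apart. Next was a pair at 8348906 to 8349195 and 8349109 to 8349398 that overlapped by 87 bp. In each of these pairs both sites had the same best-ranked overlapping peak in each replicate: ranks 1041 and 638 for the first pair and 15814 and 1179 for the second. The list thus counts 4 sites where these best-ranked peaks number 2 in each replicate. Further, lower-ranked peaks over these sites were not looked for. The other 3 of the 5 closest pairs did not overlap: they lay at 1197292 to 1197581 and 1197612 to 1197684, at 1820803 to 1821092 and 1821305 to 1821594, and at 6043374 to 6043555 and 6043837 to 6044126. The replicate ranks of their 2 members differed, 364 and 1343 in replicate 2 for the last pair, so each member had a replicate peak of its own.

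The largest groups had 4 sites, and there were 2 of them. One spanned 5992 bp from 1196064 to 1202055 on the left, with combined ranks 1059, 959, 975 and 2120 in order of position. The weakest member had rank 3929 in replicate 2 and 2013 in replicate 3, against 1149 or better for the others in both lists. The other spanned 8709 bp from 14347344 to 14356052 on the right, with combined ranks 522, 1182, 1652 and 124. In the left group the member of rank 2120 had a score of 2.79, below the ceiling of 3.61 that the others held. All 4 sites of the right group were tied at that ceiling, so their combined ranks follow name numbers. No other autosome had a group of more than 4.

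Long empty stretches were counted as distances over 200 kb, with no test because they follow from density. On V they numbered 16 of 368 (4.35%), against 18 of 1816 on I to IV (0.991%), where chromosome IV had the most, 10. Of the 16, 7 were on the left, 2 in the centre and 7 on the right, and together they covered 5.88 Mb, 28.1% of the chromosome. The longest autosomal distance, 751 kb, was on V between the sites at 19673337 to 19673626 and 20424254 to 20424543, against at most 473 kb elsewhere. The next were 584 kb from the site at 2694453 to 2694742 to that at 3278275 to 3278564, and 572 kb from 16966654 to 16966943 to 17538556 to 17538845. The site before the latter stretch, of combined rank 1971, lay 978.5 bp after the third-best site of the chromosome. A top-ranked site thus lay near 1 of the longest stretches without bordering it. Distances of 447 kb, from 18086792 to 18087077 (rank 56) to 18533664 to 18533953, and 375 kb, from 349099 to 349388 to 723967 to 724256, completed the 5 longest.

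The stretches held few of the best replicate peaks and many weak ones. The longest held 202 peaks of replicate 2, the best of rank 2084, and 178 of replicate 3, the best of rank 1905. Of the 202, 50 overlapped a replicate 3 peak. Over all of V it was 1353 of the 5691 replicate 2 peaks that overlapped no combined site. The stretch of 584 kb held 133 and 114 peaks, with best ranks 2519 and 2132, and that of 572 kb held 105 and 96, with best ranks 1374 and 3206. Over all 16 stretches, best-2332 peaks numbered 22 in replicate 2 (3.74 per Mb, against 24.3 per Mb on the rest of V) and 7 in replicate 3 (1.19 against 24.6 per Mb). This contrast is built in, since the stretches were chosen for holding no site. Low-ranked peaks, which the choice hardly touched, had a density of 133.5 per Mb inside (124.3 to 143.2) and 157.0 outside (150.8 to 163.5) in replicate 2, and of 125.7 inside (116.8 to 135.1) and 151.5 outside (145.3 to 157.8) in replicate 3. The inside density was thus 0.85 and 0.83 times the outside one, and the intervals do not overlap in either replicate. Most stretches lay in the outer parts, 7 on either side, where low-ranked peaks were also sparser. In replicate 2 their density was 144.3 per Mb on the left, 166.9 in the centre and 140.1 on the right. In replicate 3 it was 147.1, 152.3 and 133.2. How far the 2 contrasts overlap was not tested. The stretch between 2245121 and 2600581 had the fewest peaks of any rank per Mb, 112.5 and 78.8.

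**Figure D4:**
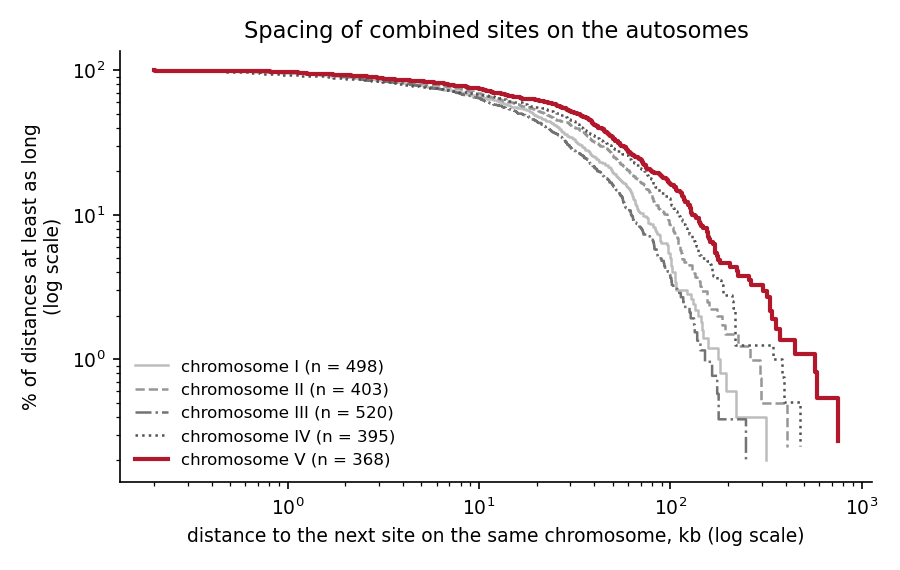
Percentage of distances between neighbouring combined sites that are at least as long as the value on the x axis (kb), for each autosome, with both axes on log scales. The curve of chromosome V (red) lies to the right of the others beyond about 20 kb and ends at 751 kb.

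The sites reached close to both chromosome ends. The first, at 8195 to 8362, had combined rank 374 with replicate ranks 335 and 403, and the next site followed 666 bp later. The last, at 20852032 to 20852321, had combined rank 2290, rank 2099 in replicate 3 and rank 25127 in replicate 2, and 67.9 kb of the chromosome followed it. The left end thus bore a site strong in both libraries, and the right end a site that replicate 2 hardly supported.

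Some strong replicate peaks of chromosome V were absent from the combined list. Of its 388 peaks among the best 2332 of replicate 2, 112 (28.9%) overlapped no combined site, beside 25.9% over all chromosomes. In replicate 3 it was 39 of 377 (10.3%), beside 9.86% over all chromosomes. Both shares are near those of the whole lists. Of these 112 and 39, 50 and 15 overlapped some peak of the other replicate, and 0 overlapped one of its best 2332. The 0 is partly built in, because these peaks were chosen for absence from a list combining both libraries. Of all listed peaks of V outside the combined list, 1353 of 5691 in replicate 2 overlapped a replicate 3 peak. In replicate 3 it was 1348 of 5405. The best ranked of the 112 in replicate 2 were at 10961648 to 10961951 (rank 1052) and 11121340 to 11121643 (rank 1057). Their nearest replicate 3 midpoints were 340 and 681 bp away. Those at 9212558 to 9212861 (rank 1186), 11802663 to 11802966 (rank 1205) and 20879396 to 20879699 (rank 1243) overlapped replicate 3 peaks of ranks 8280, 7733 and 21571. In replicate 3 they were at 3391059 to 3391338 (rank 1817), 20479162 to 20479441 (rank 1819), 6888776 to 6889055 (rank 1830), 6503190 to 6503469 (rank 1843) and 12599173 to 12599452 (rank 1886). The first overlapped a replicate 2 peak of rank 3733 and the peak of rank 1830 one of rank 22216, and the other 3 overlapped none. Each of these 10 peaks was strong in 1 library and weak or unlisted in the other, which the choice of peaks partly fixed.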

How the data were processed

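The authors deposited a peak list for each ChIP replicate and a combined list, in which every peak has a position and a score. Per the file headers, coordinates are on WormBase WS220, and the source column of the rows names SPP peaks passed through IDR. The aligner, thresholds, versions and the way of combining replicates are, in the sources used here, not given. The Input libraries have no list of their own here.

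From these lists, peaks were ranked within each list by score, ties by the number in the name, and lists were joined by overlap of at least 1 bp in Python 3.11.15 with pandas 2.3.3, NumPy 2.4.6 and SciPy 1.17.1. Shares have 95% exact Clopper-Pearson intervals and densities exact Poisson intervals, both covering counting error only. Ratios and odds ratios have exact conditional intervals. Tests were Fisher's exact test and the exact binomial test with threshold 0.05 and Benjamini-Hochberg adjustment. Overlap, merging and Fisher's test of the central share were run on simulated lists, with independent sites for the test. Alternatives were single replicates, stricter lists, other overlap rules, merged sites and other boundaries. Named sites were set by rule: the best, weakest, widest, narrowest, closest, outermost and least supported sites, the longest stretches and the extreme windows, with all ties. The best site of 290 bp and the pairs of sites that share replicate peaks were chosen after their values were seen. The members and lists were chosen with earlier results of these data known.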

Additional observations from a re-analysis of the deposited data

How the results depend on the processing

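Of 68 results under other settings, 43 were counted as unchanged. For a test this means the same side of the threshold with the same direction, and some of the 43 are values without a test. Another 10 newly passed the threshold, 10 changed direction and 5 moved in a value without a test. None of the 10 changes of direction concerned a difference that passed its test in the combined list. The two-sided tests are those of the report. The odds ratio for the central part of V against I to IV was 1.16 to 1.32 in single replicates, the higher passing, and passed with a central 50% (1.46) and after merging within 20 kb (1.41). For the right part single replicates gave 0.72 to 0.74, both passing, and it passed in the better-ranked 50% of the list (0.58), with outer parts of 25% (0.55) and after merging within 20 kb (0.68). For the left part single replicates gave 0.96 to 1.15, and it fell below 1 with outer parts of 25% (0.98) and after merging within 5 kb (0.94) or 20 kb (0.98). The left share of the outer sites was 53.5% to 57.3% in single replicates and 60.2% with outer parts of 25%. The density ratio of V was 0.62 to 0.64 in single replicates and 0.75 after merging within 20 kb. The median spacing was 31.2 to 31.5 kb in single replicates, 68.3 kb in the better-ranked 50%, 45.5 kb for sites in both best lists, and 40.01 and 60.1 kb after merging within 5 and 20 kb, which have fewer sites by construction. Differences in support between V and I to IV changed sign. For the best peaks of both replicates the difference went from -0.22 percentage points to 1.44 in the better-ranked 50%, 1.07 for midpoints within 100 bp and 2.49 for reciprocal overlap of 50%. For any peak of replicate 2 it went from -0.10 to 0.11 in the better-ranked 50% and 3.27 for reciprocal overlap. The share in the better-ranked 50% differed by -2.66 points, where that with the highest score differed by 1.57. The cause was not tested. The central share of V against low-ranked peaks passed under every setting run, but only p-values without adjustment were used there. The odds ratios were 1.57 for replicate 2 alone and 1.42 for replicate 3 alone. Against replicate 2 the lowest was 1.35, after merging within 20 kb (Fisher's exact test, two-sided, p = 0.034 without adjustment). Merging was applied to the sites and not to the low-ranked peaks. No paired analysis was possible because Input, the other group with replicates 2 and 3, has no list here. Read depth is unknown, so its limits cannot be given.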
